A study of Mus musculus with 172 samples.

Results

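Leukaemia inhibitory factor (LIF) and related cytokines signal through paired receptors. LIF binds the LIF receptor (Lifr), which pairs with gp130, the common signal-transducing subunit encoded by Il6st. Janus kinases bound to the receptors, among them JAK1, phosphorylate STAT3, which enters the nucleus and activates genes that include the feedback inhibitor Socs3 and the kinase Pim1. The pathway maintains mouse embryonic stem cells in culture and supports the inner cell mass (ICM) of embryos in diapause. Csf3r encodes the receptor for granulocyte colony-stimulating factor, which signals to the same STAT. The transcripts described here are the ligand Lif, the receptors Lifr, Il6st and Csf3r, the kinase Jak1, Stat3, and the 4 output genes Socs2, Socs3, Pim1 and Pim3. These 10 genes were listed by symbol and all 10 were found among the 49671 genes of the files.

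Single ICM cells were profiled by Smart-seq2 from blastocysts of Pou5f1 (OCT4) heterozygous parents of mixed genetic background, after the trophectoderm (TE) had been lysed by immunosurgery and used for genotyping. At embryonic day (E) 3.5 there were 58 control cells from 7 embryos (5 WT and 2 HET) and 29 OCT4-null (MUT) cells from 4 embryos. At E4.5 there were 37 epiblast (EPI) and 29 primitive endoderm (PrE) cells from the same 6 control embryos (2 WT and 4 HET), and 19 MUT cells from 2 embryos. The null allele is constitutive, so MUT cells lacked zygotic OCT4 from fertilisation onward, and HET cells carry 1 intact allele. The counts of an embryo's cells were added up, separately for EPI and PrE, and the embryo is the replicate. All E3.5 cells came from one plate and all E4.5 cells from another, so stage and plate cannot be told apart. Levels are library-scaled counts (CPM) on a scale common to all 25 sums. In such sums, fewer cells with a transcript and less RNA per cell cannot be told apart, and the share of cells with a count is therefore plotted for every gene and given for most.

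Gene counts per cell had medians between 1318327 and 1772045 in the 5 groups. Pou5f1 lay between 199 and 435 CPM in E3.5 control embryos, between 2.73 and 5.93 in E3.5 MUT embryos, and at 0 in both E4.5 MUT embryos. All 8 EPI markers were called higher and all 8 PrE markers lower in EPI than in PrE. The study assigned these lineages from the expression of the same cells, so this separation is no independent check of them. The summed level of 12 TE markers was 145 to 836 CPM in E3.5 controls, 734 to 1263 in E3.5 MUT, 65.2 to 216 in EPI, 80.8 to 494 in PrE and 4802 to 5328 in E4.5 MUT embryos. The 8 EPI markers summed to 716 to 1363 CPM in E3.5 controls, 412 to 1054 in E3.5 MUT and 491 to 1167 in E4.5 MUT. The 8 PrE markers summed to 86.0 to 286, 300 to 536 and 423 to 656 CPM in these groups. Summed over the embryos of a group, the TE marker Gata2 was at 0 in E3.5 MUT. There Krt7, Krt19 and Tfap2a were under 1 CPM in every embryo. No TE marker was at 0 in E4.5 MUT, in which Cdx2 had counts in 1 of 2 embryos. The part of this TE signal in the MUT results that follow was not tested.

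**Figure D1:**
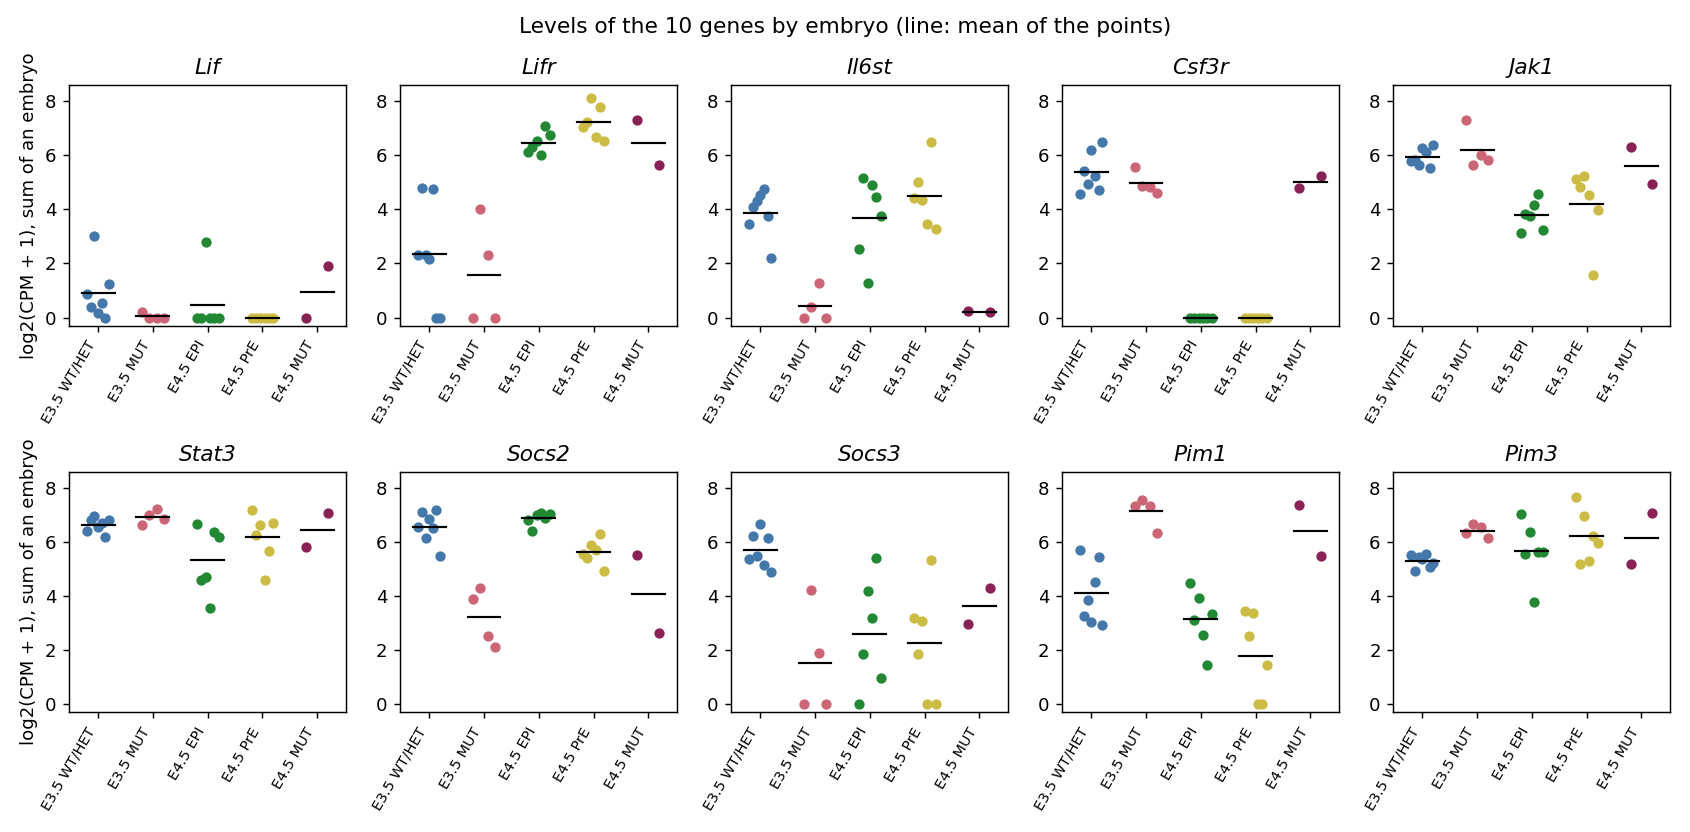
Levels of the 10 genes as log2(CPM + 1), 1 point for the sum of an embryo, in the 5 groups; the line is the mean of the points. Csf3r is at 0 in all EPI and PrE sums and between 26.6 and 36.4 CPM in both E4.5 MUT embryos, whereas Il6st is at or under 1.45 CPM in every MUT embryo of either stage.

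Transcripts of the receptor subunit gp130 were nearly absent from OCT4-null cells at both stages. Il6st (chr13:112464070-112510086, plus strand, GRCm38) measured 9.95, 16.1, 18.8, 21.8, 26, 12.5 and 3.65 CPM in the 7 E3.5 control embryos. In the 4 E3.5 MUT embryos it measured 0, 0.305, 1.45 and 0 CPM, without overlap with the controls. In E4.5 MUT embryos it was at 0.175 and 0.161 CPM, from 5 counts in all. EPI sums ranged from 1.43 to 34.4 CPM around a median of 16.5, and PrE sums from 8.56 to 88.9 around a median of 19.8, so both control lineages lay above both E4.5 MUT embryos. The log2 fold change of MUT against WT/HET at E3.5 was -4.99 ± 1.01 (SE, edgeR quasi-likelihood F test, adjusted p = 0.0132). Against PrE at E4.5 it was -7.34 ± 1.54 (adjusted p = 0.0309), and against EPI -6.61 ± 1.77, which did not pass (adjusted p = 0.0664). The E3.5 call held with each embryo left out, and with limma-trend on log2(CPM + 1) averaged over an embryo's cells, in which each cell weighs the same, though its size there was -2.53. The call against PrE was lost without MUT embryo 3 (adjusted p = 0.227), MUT embryo 8 (0.188) or the PrE sums of embryos 1, 2 and 4 (0.0505 to 0.0679), and with limma-trend (-2.85, adjusted p = 0.172). The difference from EPI passed without EPI of embryo 4 (0.0435), with DESeq2 (1.63e-05) and in one edgeR fit of all 25 sums (0.0158), and was -1.96 with limma-trend. Pooled over embryos, the Il6st share of counts was 116 times higher in EPI than in E4.5 MUT (exact 95% interval 49.6 to 358, counting error only), and 139 times higher in PrE (59.4 to 429).

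Counted cell by cell, Il6st was again found less often in MUT, but at E3.5 the shares of single embryos overlapped. The lowest control embryo had a count in 16.7% of its cells and the highest MUT embryo in 20%. Il6st had a count in 40 of 58 E3.5 control cells (69.0%, exact 95% interval 55.5 to 80.5) and in 3 of 29 E3.5 MUT cells (10.3%, 2.19 to 27.4). The mean share over embryos was 67.8% ± 28.2 (SD, n = 7) in controls and 7.50% ± 9.57 (n = 4) in MUT (exact two-sided permutation test, p = 0.0121, adjusted p = 0.231 over all 12075 genes). At E4.5 it had a count in 17 of 37 EPI cells, 16 of 29 PrE cells and 2 of 19 MUT cells. For MUT against either lineage p was 0.0714, the smallest that 2 against 6 embryos allow. Cells were also thinned to 500000 counts, and those with fewer were left out. The E3.5 shares were then 66.1% of 56 control cells and 10.7% of 28 MUT cells. Those at E4.5 were 43.2% in EPI, 55.2% in PrE and 5.26% in MUT. In single cells with a count, the median Il6st level was 17.7 CPM in E3.5 controls and 4.55 CPM in E3.5 MUT cells.

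The 5 genes with the profile closest to that of Il6st were sought over the 25 sums, among 7821 genes with a mean of at least 10 CPM. These were Tubb5 (Pearson r of log2 CPM 0.81), Rab31 (0.80), Pou5f1 (0.80), Utf1 (0.78) and Gdf3 (0.78). The sums share embryos, plates and lineages, so these values only describe likeness. The RefSeq window of 250 bases before the Il6st start is shown because the gene had the lowest log2 fold change of the members at E3.5. It was searched on both strands for TTCNNNGAA, the core of a STAT site, and ATGCAAAT, the octamer bound by OCT factors, and held neither. It lies at chr13:112463820-112464069 on the plus strand of GRCm38.p6.
Il6st: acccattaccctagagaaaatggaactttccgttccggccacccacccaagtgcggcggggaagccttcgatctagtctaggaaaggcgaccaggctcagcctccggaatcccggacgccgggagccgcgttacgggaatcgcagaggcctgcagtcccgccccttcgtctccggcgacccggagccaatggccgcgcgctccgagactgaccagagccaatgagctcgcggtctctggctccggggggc

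Lifr, the ligand-binding partner, separated the stages. Lifr (chr15:7090614-7197489, plus strand) measured 3.96, 26.6, 3.94, 3.51, 26, 0 and 0 CPM in E3.5 control embryos and 0, 15.2, 3.93 and 0 in E3.5 MUT embryos. At E4.5 it ranged from 63.9 to 136 CPM in EPI and from 92.0 to 278 in PrE, and measured 156 and 49.0 CPM in the MUT embryos. Every E4.5 sum, MUT included, lay above every E3.5 sum. A Lifr count was found in 18 of 58 control and 4 of 29 MUT cells at E3.5, and in 35 of 37 EPI, 28 of 29 PrE and 12 of 19 MUT cells at E4.5. The rise from E3.5 controls was called in EPI (log2 fold change 3.33 ± 0.963, adjusted p = 0.0155) and in PrE (4.13 ± 0.977, adjusted p = 0.00432). Among MUT embryos the difference between stages was 4.37 ± 1.66 on the log2 scale and did not pass (adjusted p = 0.143). No difference in Lifr sums between MUT and controls passed at either stage, and the interaction of stage and genotype had an adjusted p of 0.988. Between EPI and PrE the sums did not pass either (adjusted p = 0.096), with 90.5 ± 27 CPM (SD, n = 6) in EPI and 163 ± 73.2 in PrE. The mean share of cells with Lifr, MUT minus control, differed by -20.2 percentage points at E3.5. At E4.5 it differed by -30.7 from EPI and -35.3 from PrE. By exact permutation over embryos p was 0.236, 0.143 and 0.0714, the last being the smallest possible, and none passed after adjustment.

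Transcripts of the subunits of the LIF receptor were then counted together in single cells. Of the E3.5 control cells, 17 of 58 (29.3%) had counts of both Lifr and Il6st, 23 had Il6st only and 1 had Lifr only. Il6st was thus the more widely detected subunit at this stage. Of E3.5 MUT cells, 23 of 29 (79.3%) had neither and 1 had both. At E4.5 the share with both was 16 of 37 in EPI (43.2%, exact 95% interval 27.1 to 60.5) and 16 of 29 in PrE (55.2%, 35.7 to 73.6), and most other control cells had Lifr only. Of E4.5 MUT cells, 10 of 19 (52.6%) had Lifr without Il6st and 2 had both (10.5%, 1.30 to 33.1). Of Lifr-positive cells, 1 of 18 lacked an Il6st count in E3.5 controls, 19 of 35 in EPI, 12 of 28 in PrE and 10 of 12 in E4.5 MUT. These shares pool cells of several embryos. The share with both ranged from 0 to 85.7% between E3.5 control embryos, 2 of which had no Lifr count.

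**Figure D2:**
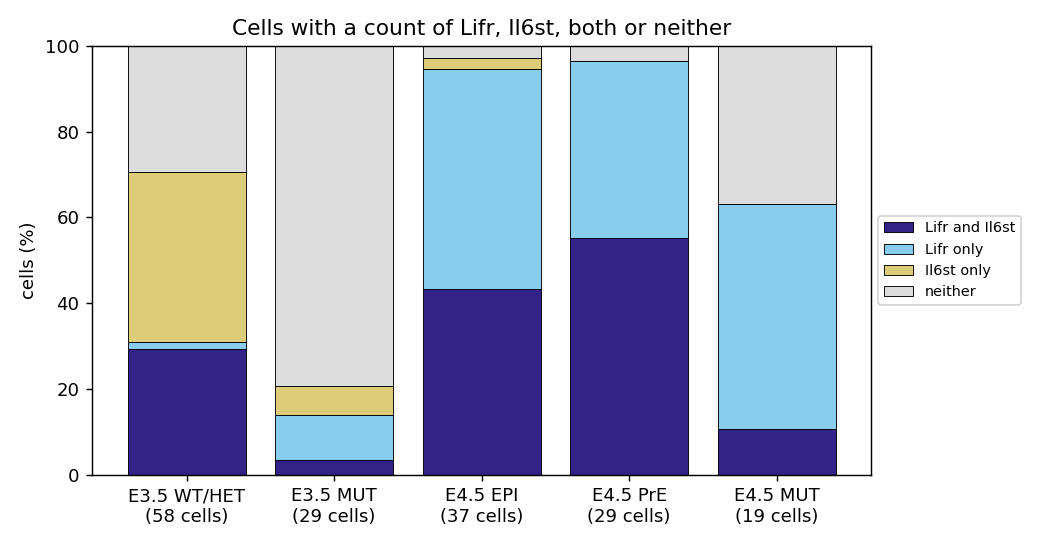
Percentage of cells in each group with a count of Lifr and Il6st, Lifr only, Il6st only, or neither; the number of cells is under each bar. Cells with both make up 43.2% of EPI and 55.2% of PrE but 10.5% of E4.5 MUT cells, in which Lifr alone accounts for 52.6%.

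Csf3r was lost from both control lineages by E4.5 and retained in a part of OCT4-null cells. Csf3r (chr4:126024550-126044440, plus strand) was present at E3.5 in controls at 22.8, 42.1, 29.3, 73.0, 36.5, 25.4 and 90.0 CPM, and in MUT embryos at 46.8, 27.8, 27.7 and 23.5 CPM. It had a count in 56 of 58 control cells and 28 of 29 MUT cells at that stage. At E4.5 no Csf3r count was found in any of the 37 EPI cells, which allows a share of cells with a count of up to 8.11% (3 of 37), or of the 29 PrE cells, which allows up to 10.3% (3 of 29). Both E4.5 MUT embryos retained it, at 26.6 and 36.4 CPM, in 8 of 19 cells (42.1%, exact 95% interval 20.3 to 66.5). These levels overlapped those of E3.5 MUT embryos, and the change between stages in MUT was -0.06 ± 0.50 on the log2 scale (adjusted p = 0.954). Fewer MUT cells had a count than at E3.5, and the median of those that did was 58.6 CPM, against 29.4 CPM at E3.5.

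For groups at 0 a floor of 3 counts over the group was used, which covers counting error only and not the sampling of cells. Relative to this floor, the pooled Csf3r share in E3.5 controls was at least 893-fold higher than in EPI and at least 723-fold higher than in PrE. The share in E4.5 MUT was at least 635-fold higher than in EPI and at least 514-fold higher than in PrE. The falls from E3.5 were called in both lineages, as were the higher levels in MUT than in EPI (adjusted p = 0.0352) and PrE (adjusted p = 0.0477), and the interaction of stage and genotype (adjusted p = 4.73e-06). Csf3r was the only 1 of 10 members with a called interaction, against 5.46% of all 16410 genes tested. The interaction kept its call with each embryo left out. The call against EPI was lost without MUT embryo 3 (adjusted p = 0.159), MUT embryo 8 (0.176) or EPI of embryo 7 (0.0526). The call against PrE was lost in 7 of 8 such fits, with adjusted p from 0.0600 to 0.216, and held only without PrE of embryo 6. In MUT embryo 3 the 4 cells with Csf3r had a median summed TE marker level of 2523 CPM and the 7 without it 7060 CPM, whereas in embryo 8 the medians were 7772 CPM in 4 cells with and 3008 CPM in 4 cells without Csf3r.

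Transcripts of the ligand itself were scarce. Lif (chr11:4257557-4272514, plus strand) measured 0.843, 0.306, 7.10, 0.135, 0.457, 0 and 1.34 CPM in E3.5 controls, with counts in 13 of 58 cells (22.4%). Among the E3.5 MUT cells 1 of 29 had a Lif count. At E4.5, 1 EPI cell, no PrE cell (an upper limit of 10.3% of cells) and 1 MUT cell had any. At E3.5 the gene was too low to be tested for MUT against controls.

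**Figure D3:**
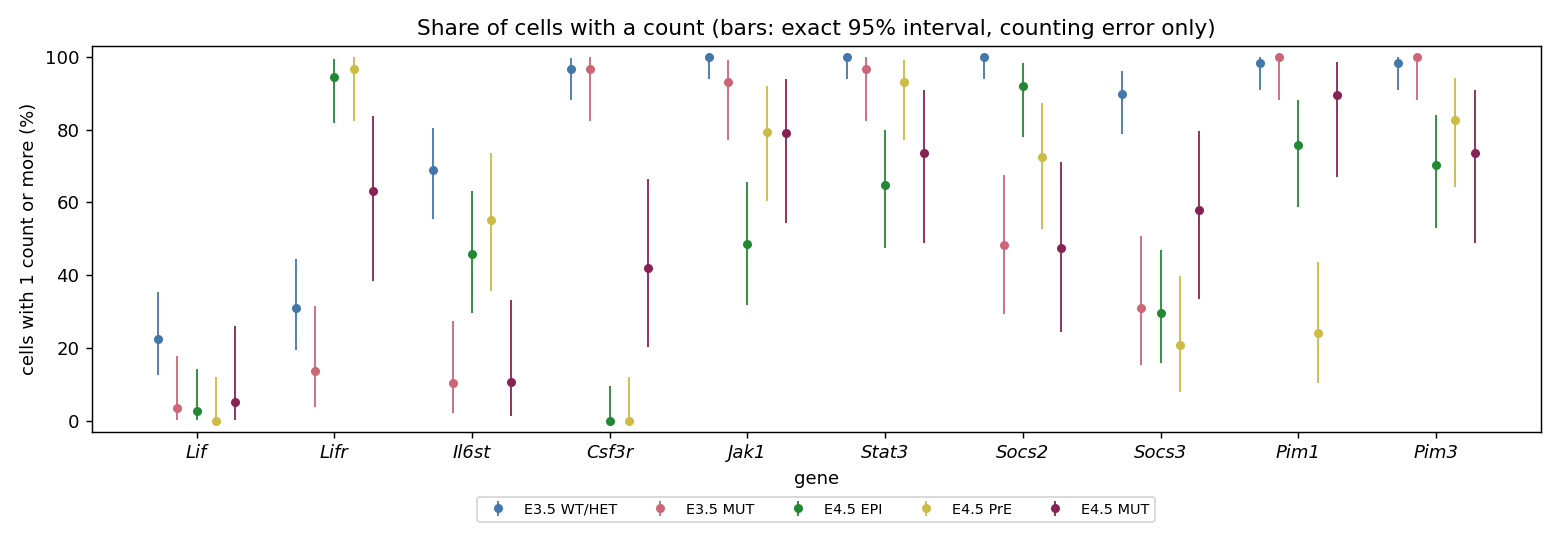
Percentage of cells with at least 1 count of each gene in the 5 groups, with exact 95% binomial intervals that cover counting error only. Lifr, Il6st and Socs2 have lower shares in MUT than in control cells at both stages, and Csf3r is at 0 in EPI and PrE cells and at 42.1% in E4.5 MUT cells.

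For Jak1 and Stat3 no difference between MUT and controls passed at either stage in the edgeR fit of each comparison. Jak1 (chr4:101152367-101265282, minus strand), the kinase bound to gp130, measured 54.7, 55.9, 48.7, 76.2, 69.1, 45.0 and 83.1 CPM in E3.5 controls and 157, 48.3, 63.1 and 55.0 in E3.5 MUT embryos, with wide overlap (log2 fold change 0.42 ± 0.32, adjusted p = 0.503). It fell in both control lineages, to 7.67 to 22.8 CPM in EPI (-2.16 ± 0.305, adjusted p = 7.98e-05) and to 1.95 to 37.0 CPM in PrE (-1.44 ± 0.453, adjusted p = 0.0242). The PrE call was lost without E3.5 control embryo 18 (adjusted p = 0.0531) and with WT embryos as controls (-2.35, adjusted p = 0.0648). Jak1 had a count in all 58 control and 27 of 29 MUT cells at E3.5, and in 18 of 37 EPI, 23 of 29 PrE and 15 of 19 MUT cells at E4.5. In the E4.5 MUT embryos Jak1 was at 77.5 and 29.8 CPM, both above all EPI sums. The difference from EPI did not pass (edgeR, unadjusted p = 0.0126, adjusted p = 0.115). Against EPI, 5 members were called with DESeq2 and 5 in the fit of all 25 sums, beside 2 in the edgeR fit of these groups. Stat3 (chr11:100885098-100939540, minus strand), the transcription factor of the pathway, ranged from 72.0 to 125 CPM in E3.5 controls and from 97.6 to 150 in E3.5 MUT (0.30 ± 0.18, adjusted p = 0.361). At E4.5 it spread from 10.9 to 101 CPM in EPI and from 23.4 to 145 in PrE, and measured 55.5 and 135 CPM in MUT. Stat3 had a count in all 58 control and 28 of 29 MUT cells at E3.5, and in 24 of 37 EPI, 27 of 29 PrE and 14 of 19 MUT cells at E4.5. None of its 8 comparisons passed by edgeR, and the lowest adjusted p was 0.102, in EPI against E3.5 controls. In that comparison 5 members were called without EPI of embryo 1 and 5 with limma-trend, beside 3 in the edgeR fit of all its embryos. Jak1 overlaps Raver2, Stat3 overlaps Stat5a and Pim1 overlaps the antisense gene Gm26885 on the opposite strand, and Smart-seq2 reads carry no strand. Over all cells, Stat5a held 1833 counts beside 23234 of Stat3, and Raver2 96 beside 12168 of Jak1.

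Of the output genes, Socs2 was lower and Pim1 and Pim3 were higher in E3.5 MUT cells. At this stage 4 of 9 tested members passed in MUT against WT/HET, beside 6.18% of all 12075 genes tested: Il6st and Socs2 were lower, Pim1 and Pim3 higher. Socs2 (chr10:95385362-95417180, minus strand), an inhibitor of cytokine signalling, measured 93.2, 137, 69.0, 114, 91.6, 144 and 44.2 CPM in E3.5 controls and 14, 18.8, 4.78 and 3.38 CPM in MUT embryos, without overlap (-3.25 ± 0.507, adjusted p = 0.00397). It had a count in all 58 control cells and 14 of 29 MUT cells. The exact two-sided permutation test over embryos gave p = 0.00606, the smallest possible for these embryos (adjusted p = 0.169). No gene passed this test of shares at E3.5. At E4.5 the MUT embryos stood apart from each other, at 44.8 and 5.15 CPM, and both lay below the EPI range of 84.8 to 133 CPM. The difference from EPI did not pass (-2.26 ± 0.691, adjusted p = 0.0911), but it did without MUT embryo 3 (-4.53, adjusted p = 0.00556), with DESeq2 (0.00467), with limma-trend (0.00508) and in the fit of all 25 sums (0.0362). Without MUT embryo 8 it was -1.40. The difference from PrE was -0.99 ± 0.766 (adjusted p = 0.613).

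Socs2 was also the single member that separated EPI from PrE. Its PrE sums lay at 45.9, 41.3, 58.7, 50.5, 76.8 and 29.1 CPM, each below every EPI sum, and EPI was 2.33 times higher in the mean (1.22 ± 0.248, adjusted p = 0.00513). One of 8 tested members was called in this comparison, beside 9.81% of all 9762 genes. With embryo as a replicate block the value was 1.27 ± 0.257 (adjusted p = 0.0201), and in the fit of all 25 sums the call was lost (0.0503).

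Socs3 (chr11:117966079-117970047, minus strand), the feedback inhibitor that binds gp130, was found in every E3.5 control embryo, at 40.7, 73.1, 44.3, 100, 34.8, 69.3 and 29 CPM. The E3.5 MUT embryos were at 0, 17.6, 2.73 and 0 CPM, below every control. A count was found in 9 of 29 MUT cells against 52 of 58 control cells (exact permutation test, p = 0.00606, the smallest possible, adjusted p = 0.169). The fold change did not pass (-3.42 ± 1.06, adjusted p = 0.0756), but did without MUT embryo 12, which alone exceeded 3 CPM (-5.71, adjusted p = 0.00862), with DESeq2 (0.0335) and with limma-trend (0.000679). By E4.5 Socs3 was low in control lineages as well, at 0 to 41.3 CPM in EPI (median 5.37) and 0 to 39.7 in PrE (median 5.05), and at 6.87 and 18.8 CPM in MUT. The difference from E3.5 did not pass in EPI (-2.21 ± 0.858, adjusted p = 0.0622) or PrE (-2.57 ± 1.04, adjusted p = 0.0742). It passed in EPI without embryo 6 (adjusted p = 0.00972) or embryo 1 (0.0471), with DESeq2 (0.0124) and with limma-trend (1.47e-05). In PrE it passed without embryo 6 (0.00685), with DESeq2 (0.0276) and with limma-trend (0.00109). Of the 6 E3.5 control embryos with Il6st-positive and Il6st-negative cells, mean Socs3 was higher in the positive cells of 3 and lower in those of 3, with as few as 1 cell on a side and no test.

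Of the 9 members with a RefSeq promoter window (250 bases before to 50 after the start, GRCm38.p6), Socs3 was the only 1 with a TTCNNNGAA match, and none held ATGCAAAT. Among all 32817 windows 8.29% held the former and 1.74% the latter. The Socs3 match lies 154 to 146 bases before the RefSeq start, inside the gene record given above, which begins further upstream at 117970047. It is printed with its neighbours because Socs3 is the classical STAT3 target of the list. The stretch is chr11:117969502-117969530, minus strand, with the match in capitals.
Socs3: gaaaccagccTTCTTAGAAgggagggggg

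Pim1 (chr17:29490753-29496112, plus strand), a serine/threonine kinase, was higher in MUT cells. It measured 50.6, 8.58, 13.5, 7.30, 21.8, 43.1 and 6.70 CPM in E3.5 controls and 158, 189, 158 and 80.4 CPM in MUT embryos, without overlap. The means differed 6.77-fold (2.77 ± 0.547, adjusted p = 0.0114), a call lost in the fit of all 25 sums (0.129). Of the control cells 57 of 58 had a count, and the levels per cell differed, with medians of 15.4 CPM in control and 145 CPM in MUT cells. At E4.5 Pim1 was at 1.72 to 21.3 CPM in EPI and 0 to 9.96 in PrE, and at 164 and 43.8 CPM in MUT embryos, above every control sum. This was called against EPI (3.39 ± 0.793, adjusted p = 0.0412) and did not pass against PrE (4.60 ± 1.44, adjusted p = 0.110). The latter passed with DESeq2 (0.0225), with limma-trend (0.0187) and in the fit of all 25 sums (0.00581). With 1 embryo left out, the call against EPI held without EPI of embryo 1 or of embryo 6. It was lost with limma-trend (2.93, adjusted p = 0.108), with WT embryos as controls (4.91, 0.136), and without MUT embryo 3 (2.14, adjusted p = 0.482), MUT embryo 8 (0.0596), or the EPI sums of embryos 2, 4, 5 and 7 (0.0625 to 0.0781). In PrE, 7 of 29 cells had a Pim1 count and in EPI 28 of 37 did. The mean shares differed by 54.3 percentage points (exact sign-flip permutation test over 6 embryos, p = 0.0625, smallest possible 0.0312, adjusted p = 0.344).

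Pim3 (chr15:88862186-88865726, plus strand), a related kinase, measured 44.7, 29.5, 42.3, 40.8, 46.0, 33 and 36.8 CPM in E3.5 controls and 80.5, 99.7, 92.5 and 69.4 in MUT, again without overlap (1.15 ± 0.176, adjusted p = 0.00355, and 0.302 in the fit of all 25 sums). At E4.5 it lay at 12.9 to 131 CPM in EPI, 35.9 to 202 in PrE and 35.9 and 134 in MUT, where 1 embryo was just above the highest EPI sum, and no difference between MUT and a lineage passed. A Pim3 count was found in 57 of 58 control and all 29 MUT cells at E3.5, and in 26 of 37 EPI, 24 of 29 PrE and 14 of 19 MUT cells at E4.5. Both kinases were above every control at E3.5, and of these 2 genes only Pim1 was so in both MUT embryos at E4.5. The share of all genes separated in this way was not counted. Per kilobase of exon, mean Pim1 and Pim3 levels in E3.5 MUT embryos were 43.6 and 35.2 CPM, against 6.44 and 16.1 in controls. On that scale Socs3 was the highest of the 10 in E3.5 controls, at 19.3 CPM per kilobase, and averaged 1.76 in MUT, a difference that did not pass the test.

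Across stages in controls, 3 of 9 tested members passed in EPI, beside 31.9% of all 11142 genes: Csf3r and Jak1 were lower and Lifr higher at E4.5. In PrE 5 of 9 passed, beside 31.7% of 10800 genes: Csf3r, Jak1 and Socs2 (-0.98 ± 0.287, adjusted p = 0.0164) were lower, Lifr and Pim3 (1.19 ± 0.364, adjusted p = 0.0211) higher. The Pim3 call was lost without PrE of embryo 1 (0.75, adjusted p = 0.0695), with limma-trend on cell means (0.19, adjusted p = 0.769) and against WT controls without HET embryos (0.51, adjusted p = 0.315), and the Socs2 call in the latter fit (-0.54, adjusted p = 0.391) and in that of all 25 sums (-0.97, 0.0772). The Lifr call in EPI was lost against WT controls (0.0596). Pim1 did not pass in either lineage (EPI -1.14 ± 0.651, adjusted p = 0.204, and PrE -2.34 ± 1.04, adjusted p = 0.105), nor did Socs2 in EPI (0.27 ± 0.239, adjusted p = 0.425). In PrE Pim1 passed with DESeq2 (0.0337), with limma-trend (0.000463), against WT controls (0.0126) and in the fit of all 25 sums (0.0386). In MUT embryos none of 8 tested members passed between stages by edgeR, beside 6.76% of all 12714 genes. An unadjusted p under 0.05 was found for 1 of 8 (Lifr), beside 3495 of the 12714 genes. By limma-trend 3 members passed, beside 2247 of all genes. At E4.5, 2 of 10 tested members passed in MUT against EPI (4.92% of 12953 genes), Csf3r and Pim1. Against PrE 2 of 9 passed (3.81% of 12246 genes), Csf3r and Il6st. These comparisons share the 2 MUT embryos. The median log2 fold change of tested members was -0.51 at E3.5, 0.44 against EPI and 0.22 against PrE, beside -0.02, -0.03 and 0.05 over all genes, and setting Csf3r to its bound left these medians as they are.

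Among 65 other genes of the pathway, 52 were tested at E3.5. Of these 3 were higher and 4 lower in MUT (13.5% called, beside 6.18% of all genes). The lower genes with the smallest adjusted p were Tfcp2l1, a STAT3 target that sustains naive pluripotency (717 CPM in controls, 373 in MUT, adjusted p = 0.0121), the lymphoid Janus kinase Jak3 (14.4 and 0.478 CPM, 0.0141) and Pias2 (128 and 69.1 CPM, 0.0199). The higher were the STAT phosphatase gene Ptpn2 (125 and 281 CPM, 0.0256), Pramel7 (411 and 782 CPM, 0.0262) and the survival gene Bcl2l1 (8.09 and 21.3 CPM, 0.0403). None of the 3 tested ligand genes and 6 tested receptor genes passed.

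At E4.5, 4 of 52 tested pathway genes passed in MUT against EPI (7.69%, beside 4.92% of all genes). Cish, a feedback inhibitor induced by STAT5, averaged 0.0222 CPM in EPI and 24.7 in MUT (adjusted p = 0.0150), and Pramel7 3.84 and 374 CPM (0.0414). Pias2 (197 and 20.1 CPM, 0.00130) and Pim2 (226 and 19.2 CPM, 0.0486) were lower. Against PrE, 1 of 49 passed (2.04%, beside 3.81%), Sall4, at 433 CPM in PrE and 204 in MUT (0.0412). Between EPI and PrE 7 of 41 passed (17.1%, beside 9.81%). Pias2, Tfcp2l1 (308 against 32 CPM) and Pim2 (226 against 43.4 CPM) were higher in EPI, and Klf5 (121 against 301 CPM), the inhibitor Socs1 (3.65 against 33.8 CPM) and Junb (14.5 against 57.9 CPM) had the smallest adjusted p among 4 that were higher in PrE.

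Between stages 12 of 48 tested pathway genes passed in EPI (25%, beside 31.9% of all genes) and 15 of 43 in PrE (34.9%, beside 31.7%). In EPI, Pim2 (6.01 to 226 CPM), Bcl2l1 (8.09 to 37.8) and Sall4 (180 to 315) led the 5 that rose, and Pramel7 (411 to 3.84), Cish (2.78 to 0.0222) and Tfcp2l1 (717 to 308) the 7 that fell. In PrE, Bcl2l1 (to 78.6 CPM), Sall4 (to 433) and Klf5 (141 to 301) led the 8 that rose, and Tfcp2l1 (to 32), Mcl1 (115 to 44.5) and the interleukin-6 receptor gene Il6ra (9.63 CPM to 0 in all 6 sums) the 7 that fell. In MUT embryos 2 of 53 passed between stages (3.77%, beside 6.76%): Jak3 rose from 0.478 to 43.0 CPM, and the leptin receptor gene Lepr fell from 8.12 to 0.0291 CPM. The interaction passed for 5 of 57 (8.77%, beside 5.46%). Jak3, Tfcp2l1 and Bcl3 had positive values, so their MUT change between stages lay above that of controls, and those of Socs7 (at 0 in both E4.5 MUT embryos) and Pias2 were negative.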

How the data were processed

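Counts were deposited by the authors as raw whole-number read pairs per gene and cell, made with STAR and HTSeq per the labels, on GRCm38 with Ensembl annotation per the study's methods, and with no normalization. Read pairs outside genes (4.72%), shared by several genes (8.65%) or aligned to several places (32.3%) were left out of library sizes. The last share differed by stage, with medians per cell of 38.8% in E3.5 controls and 41.1% in E3.5 MUT. At E4.5 they were 24.9% in EPI, 19.7% in PrE and 22.0% in MUT. Symbols and coordinates came from GENCODE M21 (GRCm38), which held 49412 of 49671 genes. Group, genotype, stage and lineage came from the labels. Embryo and plate came from the study's supplementary list of cells, and the labels do not give them. The members and lists were chosen with earlier results of these data known.

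Counts were summed over an embryo's cells (2736296 to 17453036 counts per sum), filtered with filterByExpr, scaled by the trimmed mean of M values and tested with the edgeR 4.0.16 quasi-likelihood F test (R 4.3.3), Benjamini-Hochberg adjusted over all tested genes at 0.05. Errors are the log2 fold change over the square root of F. The interaction used whole ICM sums at E4.5. Shares of cells with at least 1 count were compared as embryo means by exact permutation over every gene tested. Intervals are exact (Clopper-Pearson, 95%) and, as reads carry no molecular identifiers, cover counting error only, like the floor of 3 counts. EPI and PrE sums of an embryo come from the same animal, and their deviations correlated by 0.00885 to 0.0458. Named besides the members were, per comparison, the 3 called higher and 3 called lower pathway genes with the smallest adjusted p, and the 5 genes most like Il6st. Alternatives were DESeq2 1.42.0, its size factors, no filter, limma-trend (limma 3.58.1) on cell means, 9 shallow cells left out (under 0.5 of their stage's median), WT embryos as the only controls, all 25 sums in one fit, a replicate block, EPI as the E4.5 control, each embryo left out, and for shares 5 counts or thinning to 500000 counts. The fits and tests were tested on simulated data.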

Additional observations from a re-analysis of the deposited data

Results flagged for a closer look

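In 7 of 37 groups of 4 to 7 embryos, 1 embryo lay far from the others by Dixon's criterion, which chance gives in about 1 in 20 groups. That rate does not apply to groups with a single embryo above 0, which this criterion always flags. Lif stood at 7.10 CPM in E3.5 control embryo 13 (next 1.34), in a group with 6 of 7 embryos above 0. It was at 0.145 CPM, from 1 count, in E3.5 MUT embryo 10 (others 0), and at 5.89 CPM in EPI of embryo 4 (others 0). Both Il6st and Socs3 were highest in PrE of embryo 6, a sum of 2 cells, at 88.9 CPM (next 30.9) and 39.7 CPM (next 8.16). Jak1 reached 157 CPM in E3.5 MUT embryo 10 (next 63.1), and Socs3 17.6 CPM in E3.5 MUT embryo 12 (next 2.73).

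The change in Csf3r between stages differed between genotypes, with an interaction of 12.3 on the log2 scale (adjusted p = 4.73e-06 by edgeR). Its size depends on the prior count, since both control lineages are at 0.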

How the results depend on the processing

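Of the members, Il6st and Socs2 at E3.5, Csf3r in EPI and in PrE, Jak1 in EPI and Lifr in PrE against E3.5 controls, and the Csf3r interaction kept direction and call in every alternative run. At E4.5 the 2 MUT embryos limit every call, and a fit without 1 of them assumes the other varies like the controls. Where a call was lost or gained otherwise, the cause was not tested. Of 38 further log2 differences that did not pass, 21 changed direction and 9 passed under at least 1 alternative.

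With DESeq2, 1607 genes were called at E3.5 (edgeR 746), 1711 in E4.5 MUT against EPI with 5 members (637 with 2), 1223 against PrE (466), 1447 between EPI and PrE with 2 members (958 with 1), 2636 between MUT stages (860) and 1850 for the interaction (896). With limma-trend these were 1353, 1479, 1097, 1824, 2247 with 3 members, and 1445 with 2 members, and between E3.5 controls and EPI 5793 with 5 members (3557 with 3) and PrE 5191 (3420). It gave -0.51 for Jak1 and -0.039 for Stat3 at E3.5. The median log2 fold change over all genes by limma-trend was -0.23 at E3.5 (edgeR -0.02). Against E3.5 controls this median was -0.63 in EPI (edgeR -0.06) and -0.62 in PrE (edgeR -0.10). Its values for single genes hold this shift. With WT embryos as the only controls 435 genes were called at E3.5, 48 against EPI and 27 against PrE with 0 members each, and 470 for the interaction, and the Lifr rise in EPI had an adjusted p of 0.0596. In one fit of all 25 sums 193 were called at E3.5 with 2 members (Pim1 and Pim3 lost their calls, adjusted p = 0.129 and 0.302), 1631 against EPI with 5 members, 1366 against PrE, 2467 between EPI and PrE with 0 members (Socs2 0.0503), and 1430 between MUT stages. Without 9 shallow cells 1 member was called against PrE (Csf3r had an adjusted p of 0.0501).

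With 1 embryo left out, genes called ranged from 482 to 882 at E3.5, 226 to 774 against EPI (0 to 2 members), 169 to 534 against PrE (0 to 2 members), 649 to 916 between EPI and PrE, 33 to 516 between MUT stages and 562 to 1015 for the interaction (1 to 2 members), and members called from 3 to 5 in EPI against E3.5. Jak1 at E3.5 ranged from -0.13 to 0.61, below 0 only without MUT embryo 10. With embryo as a replicate block 840 genes were called between EPI and PrE, and the block changed no call of a member.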
